A study of Mus musculus with 18 samples.

Results

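The genes described here encode the proteins of the cytosolic ribosome. They were chosen by symbol alone, as every symbol of the form Rpl or Rps with a number, together with the stalk genes Rplp0 to Rplp2 and Rpsa. Of 22180 genes with a probe set of their own on the array, 57 matched: 32 of the large subunit, 3 of the stalk of the large subunit and 22 of the small subunit. The mouse reference holds 76 protein-coding genes of this form, and the other 19 (among them Rpl10, Rpl12, Rpl13a, Rps2 and Rps27a) had no probe set carrying their symbol alone and are not analysed here. Where a gene had several probe sets, as 24 members did, the one with the highest mean over all arrays stood for it. Which of a gene's probe sets reads the coding gene is not settled by the sources used here, so the values of such members are those of the brightest probe set. Those named below include Rpl3, Rpl4, Rpl7, Rpl7a, Rpl9, Rpl13, Rpl19, Rpl21, Rpl23a, Rpl27, Rpl29, Rplp0, Rpsa, Rps12, Rps19, Rps20 and Rps26. For several of them, Rps12 and Rpl27 included, the values of the other probe sets are not given below.

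RNA came from mouse embryonic stem cells (ESCs) of an F1 (C57Bl6N x 129Sv) background, either Pax7+/+ or Pax7-/-. Pax7 encodes a paired-box transcription factor known for its part in muscle satellite cells and neural crest. Each genotype was sampled as undifferentiated ESCs kept with LIF (day 0), as embryoid bodies (day 7) and as embryoid body outgrowths (day 21), and both later stages were grown without LIF and with RA and ITS. Every one of the 6 groups held 3 arrays labelled as biological replicates. The labels do not say how many ESC lines or clones stand behind a genotype, so p-values measure the spread between these arrays, and a difference between genotypes cannot be told apart from one between lines.

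The 18 arrays fell into a narrow set of 10, with an SD over probe sets of 1.37 to 1.45 log2 units, and a wide set of 8, with an SD of 1.79 to 1.85. Arrays of one set correlated at 0.914 or more over all probe sets, and arrays of different sets at 0.653 to 0.789. Every group held arrays of both sets, but at day 21 Pax7+/+ had 2 narrow arrays and 1 wide, and Pax7-/- had 1 narrow and 2 wide. All differences below therefore come from a fit that blocks on the array set, and within-set values stand beside those that depend on it. The probe set for Pax7 did not differ between genotypes at day 0 (0.03 ± 0.23 log2, SE, n = 3 per genotype, limma adjusted p = 0.98), day 7 (-0.01 ± 0.24, adjusted p = 0.997) or day 21 (0.25 ± 0.24, adjusted p = 0.681). The position of its probes within Pax7 is not given in the sources used here, so this probe set checks no label.

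A ribosome joins its RNAs with a large set of proteins, most of them present as a single copy, and cells therefore need the proteins in matched amounts. Their mRNAs are among the most abundant in dividing cells. They typically begin with a run of pyrimidines (C or T), the 5′ terminal oligopyrimidine (TOP) element, through which the growth-controlling kinase mTOR and the RNA-binding protein Larp1 set their translation. In stem cells, as in other growing cells, ribosomal protein output is known to follow growth and division.

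The start regions of 6 members are shown because this pyrimidine run is a known feature of the family that the choice by symbol did not use. They are examples picked by hand: Rpl38, Rpl19, Rpl14, Rpl13 and Rps6 for their long runs, and Rpsa for a short one. Each line gives 40 bases before and 20 bases from the annotated start on, read 5′ to 3′ on the coding strand from RefSeq on GRCm38.p6, with the longest pyrimidine run in capitals. Rpl19 had 2 annotated starts, and the one shown was picked for the length of its run. The regions are Rpl38 at chr11:114668540-114668599 (plus strand), Rpl19 at chr11:98026884-98026943 (plus), Rpl14 at chr9:120571477-120571536 (plus), Rpl13 at chr8:123102310-123102369 (plus), Rps6 at chr4:86857348-86857407 (minus) and Rpsa at chr9:120127726-120127785 (plus).
Rpl38: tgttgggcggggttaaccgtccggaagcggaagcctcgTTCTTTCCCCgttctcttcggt
Rpl19: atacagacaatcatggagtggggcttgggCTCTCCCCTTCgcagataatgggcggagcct
Rpl14: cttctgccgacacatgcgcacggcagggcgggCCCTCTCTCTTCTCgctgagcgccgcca
Rpl13: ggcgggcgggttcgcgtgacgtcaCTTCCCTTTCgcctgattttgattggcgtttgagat
Rps6: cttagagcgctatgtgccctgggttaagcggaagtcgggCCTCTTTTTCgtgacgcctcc
Rpsa: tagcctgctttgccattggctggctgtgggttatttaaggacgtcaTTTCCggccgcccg

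The runs in capitals are 10 bases long in Rpl38, 11 in Rpl19, 14 in Rpl14, 10 in Rpl13, 10 in Rps6 and 5 in Rpsa. Those of Rpl38, Rpl14 and Rps6 cross the annotated start, those of Rpl19 and Rpl13 lie wholly before it, and that of Rpsa lies after it, so a run in capitals is not shown to be the first bases of the mRNA. Rps4x with a run of 5, Rpl37 with 6, and Rplp0 and Rpl11 with 7 were further members with short runs. The reference table held start regions for 44 of the 57 members, 51 regions in all because some genes have several starts. A run of 8 or more pyrimidines lay in 56.9% of the members' 60-base windows and in 24.2% of those of all 32851 promoters in the table. The letters CGGAAG, on either strand of the 300 bases around the start (250 before, 50 after), were found in 60.8% of the members' promoters and in 16.9% of all. Both counts are of letters, not of sites in use. Among members higher in Pax7-/- at day 21 the run was present in 57.1% of windows, and among the others in 56.8%. The letters CGGAAG were present in 7 of 14 promoters of the former and in 24 of 37 (64.9%) of the latter.

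At day 21 ribosomal protein genes were higher in Pax7-/- outgrowths than in Pax7+/+ outgrowths. Of the 57 members, 17 were higher, none was lower and 40 did not pass (limma blocking on the array set, adjusted p under 0.05 over all genes). By the same test 3.82% of all genes were higher and 1.07% lower. The members' median difference was 0.30 log2 against -0.01 for all genes, and 49 of 57 differences lay above 0, as did 48.7% of those of all genes. Of the 17, 12 belong to the large subunit (12 of 32, median 0.40 log2) and 5 to the small subunit (5 of 22, median 0.26), while none of the 3 stalk genes passed (median 0.22). On the arrays of 1 set the groups did not overlap, in either set, for 35 members that were higher in Pax7-/- and 2 that were lower, against 18.8% and 17.3% of all genes. In these bulk samples more cells of a type and more RNA per cell cannot be told apart.

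The count rests on the array-set block and on single arrays. With no block for the array set 0 of 57 members passed, and the adjusted p-values of the 17 were then 0.239 for Rpl3 and 0.822 for the rest. Without Pax7+/+ replicate 1 or replicate 3 of day 21 the count was 5 or 8, and without Pax7-/- replicate 1, 2 or 3 of that day it was 5, 6 or 9. The narrow arrays alone gave 8 members and the wide arrays alone 5, of which 4 were higher and 1 was lower. The shares of all genes that passed in these refits are not given here. The median difference was 0.32 on each set, and 48 of 57 members (84.2%) had the same sign in both sets, against 60.2% of all genes.

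**Figure D1:**
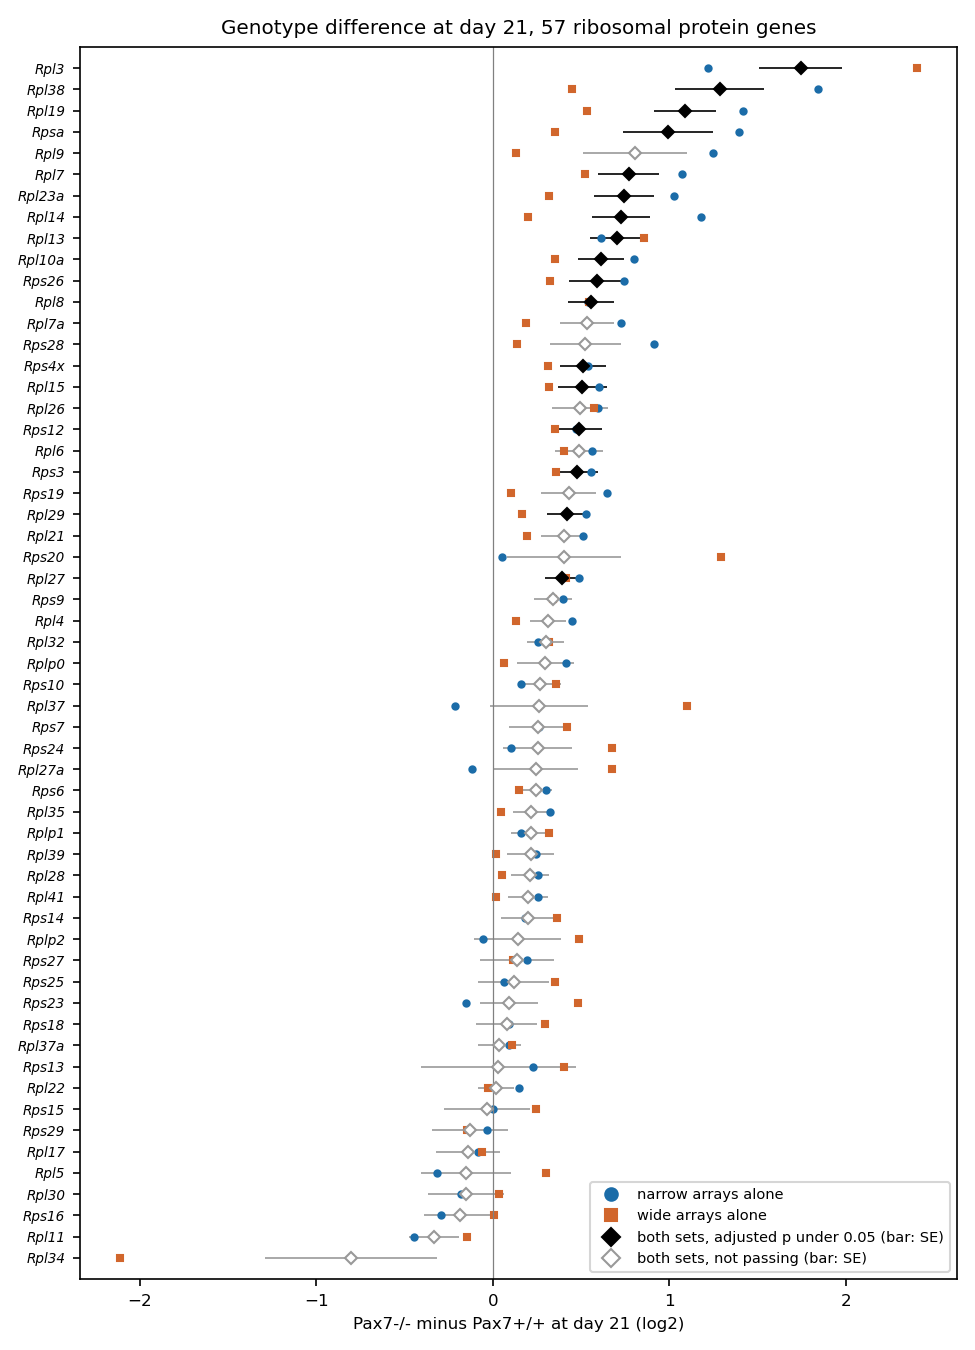
Difference between Pax7-/- and Pax7+/+ at day 21 for each of the 57 members, in log2 units, with diamonds for the fit to both array sets (bars are SE), circles for narrow and squares for wide arrays alone. The 17 filled diamonds all lie above 0, and Rpl34 lies at 0.65 on narrow and -2.11 on wide arrays.

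Which members passed went with signal. Of the 57 members, 34 had a mean value above the 90th percentile of all genes (7.20 log2), and all 17 members that passed were among these (17 of 34, median 0.48 log2). Of the 2218 genes above that percentile, 19.8% were higher in Pax7-/- by the same test, with a median of 0.19. None of the 21 members at or below the 75th percentile (6.25 log2) passed, and their median was 0.08. The deposited files give no detection call, and 14 members lay below the median of all genes (5.21 log2). The test does not show these 21 members to be equal between genotypes.

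**Figure D2:**
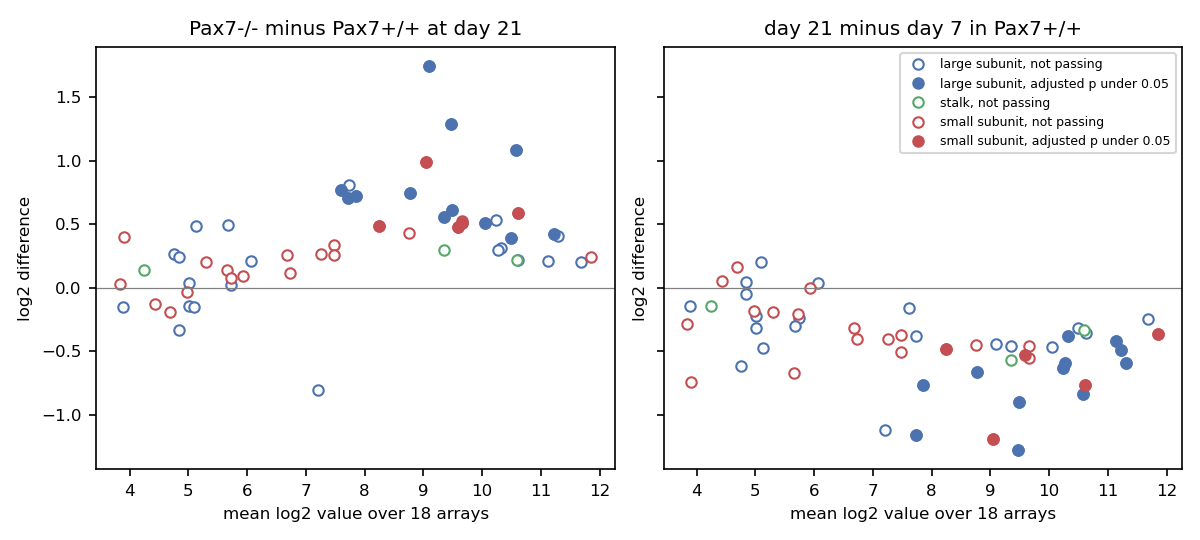
Log2 difference of each member (vertical) against its mean log2 value over the 18 arrays (horizontal), coloured by subunit and filled where the adjusted p was under 0.05. Left, the 17 members higher in Pax7-/- at day 21; right, the 17 lower at day 21 than at day 7 in Pax7+/+; in both panels every filled point lies above 7.20 on the horizontal axis.

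Among large subunit members, Rpl38 showed one of the widest gaps. Rpl38 is known in mouse for its role in the translation of a subset of Hox mRNAs, and its loss there alters the axial skeleton. At day 21 Rpl38 read 7.18 and 7.81 on the narrow and 9.69 on the wide Pax7+/+ array, and 9.34 on the narrow and 10.10 and 10.17 on the wide Pax7-/- arrays. At day 7 it read 9.39, 10.13 and 10.07 in Pax7+/+ and 9.38, 10.34 and 9.35 in Pax7-/-. At day 0 it read 9.04, 9.13 and 10.19 in Pax7+/+ and 9.46, 10.19 and 9.60 in Pax7-/-. The 3 Pax7+/+ arrays of day 21 were the lowest of their array set. Rpl38 was higher in Pax7-/- at day 21 by 1.29 ± 0.25 log2 (SE, n = 3 per genotype), or 2.44-fold, with an adjusted p of 0.00682. The difference was 1.84 on narrow arrays and 0.45 on wide arrays.

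Rpl19, a large subunit protein that helps bridge the subunits, followed the same order. Its Pax7+/+ arrays of day 21 read 9.01 and 8.91 (narrow) and 10.67 (wide), and its Pax7-/- arrays 10.38 (narrow), 11.19 and 11.22 (wide). At day 7 Rpl19 read 10.05, 11.04 and 10.93 in Pax7+/+ and 10.62, 11.28 and 10.74 in Pax7-/-. Within each set the genotypes did not overlap at day 21. The difference was 1.09 ± 0.18 log2 (adjusted p = 0.00191), 1.42 on narrow and 0.54 on wide arrays. A dimmer probe set for Rpl19, with a mean of 4.97 over the arrays, differed by 0.23 log2 and did not pass.

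Rpl14, Rpl23a, Rpl7 and Rpl13 are further large subunit proteins, and Rpl23a sits at the exit of the nascent peptide tunnel. Rpl14 read 6.15 and 6.32 (narrow) and 8.51 (wide) in Pax7+/+ at day 21, and 7.41 (narrow), 8.66 and 8.75 (wide) in Pax7-/-. Rpl23a read 7.19, 7.33 and 9.13 in the same order in Pax7+/+, and 8.29, 9.56 and 9.34 in Pax7-/-. Both genes separated the genotypes within each set. Rpl14 was higher by 0.73 ± 0.17 log2 (adjusted p = 0.0173) and Rpl23a by 0.74 ± 0.17 (adjusted p = 0.0185). Rpl7 was higher by 0.77 ± 0.17 (adjusted p = 0.0155) and Rpl13 by 0.71 ± 0.16 (adjusted p = 0.0147). A second, dimmer probe set of Rpl7 differed by 0.03 log2 and one of Rpl13 by 0.11, and neither passed. Leaving out 1 array took the adjusted p of these 4 genes as high as 0.107 (Rpl14), 0.078 (Rpl23a), 0.0951 (Rpl7) and 0.0877 (Rpl13).

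Rpl10a, also of the large subunit, read at similar values in both array sets. At day 21 it read 8.81, 9.09 and 8.55 in Pax7+/+ and 9.48, 9.35 and 9.53 in Pax7-/-, with no overlap between the genotypes. At day 7 it read 9.72, 9.83 and 9.66 in Pax7+/+ and 9.36, 9.41 and 9.65 in Pax7-/-, and at day 0 between 9.55 and 9.87 over both genotypes. The day 21 difference was 0.61 ± 0.13 log2 (1.53-fold, adjusted p = 0.0108). The remaining large subunit members that passed at day 21 were Rpl8 (0.56 log2), Rpl15 (0.51), Rpl29 (0.42) and Rpl27 (0.40). For Rpl29 this is the brightest probe set, with a mean of 11.2 log2. Its dimmer probe set, with a mean of 6.70, differed by -0.42 ± 0.39 at day 21 (adjusted p = 0.74 over all probe sets), with 0.55 on narrow and -1.09 on wide arrays.

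Of the small subunit, Rpsa, Rps26, Rps4x, Rps12 and Rps3 were higher in Pax7-/- at day 21. Rpsa is also known as the laminin receptor precursor, and its human gene is mutated in congenital asplenia. It read 6.88 and 7.47 (narrow) and 9.29 (wide) in Pax7+/+ and 8.57 (narrow), 9.58 and 9.72 (wide) in Pax7-/-, so that the genotypes separated within each set. Rpsa was higher by 0.99 ± 0.25 log2 (1.99-fold, adjusted p = 0.0334), and its adjusted p rose to 0.113 with 1 array left out. Its other probe set differed by 0.05 log2 and did not pass.

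Rps26, which lines the channel through which mRNA leaves the small subunit, was higher by 0.59 ± 0.16 log2 (adjusted p = 0.0403), while its second probe set (mean 3.29 log2) gave -0.07. Rps4x, whose gene lies on the X chromosome, was higher by 0.51 ± 0.13 (adjusted p = 0.0336). Rps3, at the mRNA entry side, was higher by 0.48 ± 0.12 (adjusted p = 0.0305), and Rps12 by 0.49 ± 0.13 (adjusted p = 0.0471). For Rps26 and Rps4x the highest adjusted p with 1 array left out was 0.153 and 0.125.

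**Figure D3:**
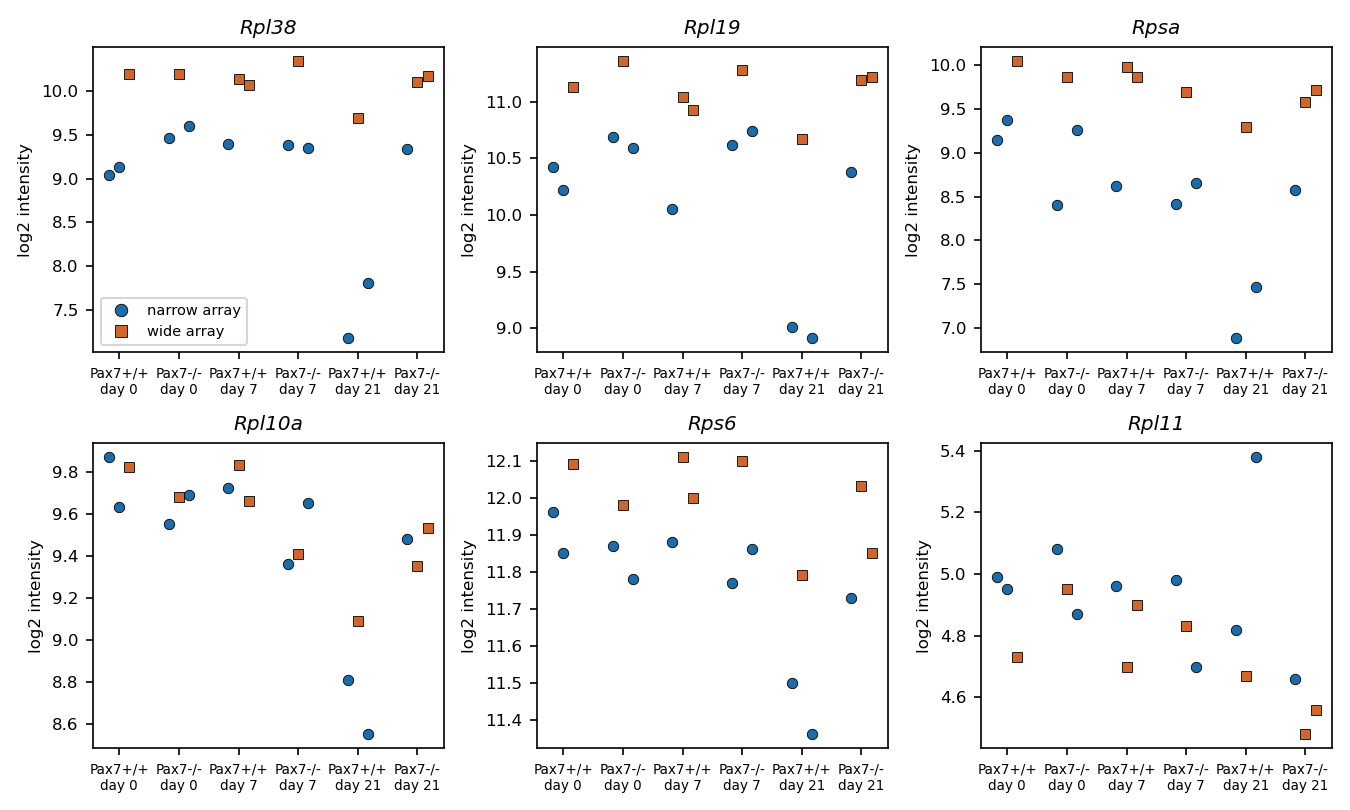
Log2 intensity of 6 members on each of the 18 arrays, by genotype and day, with circles for narrow and squares for wide arrays. In Rpl38, Rpl19, Rpsa and Rpl10a the 3 Pax7+/+ arrays of day 21 are the lowest of their array set; Rps6 shows the same order over a smaller range, and the dim Rpl11 does not.

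Of the members named for roles beyond the assembled ribosome, 6 did not pass at day 21. Rps6, the substrate of the S6 kinases, read 11.50, 11.79 and 11.36 in Pax7+/+ and 11.73, 12.03 and 11.85 in Pax7-/- at day 21, a difference of 0.24 ± 0.09 log2 that did not pass (adjusted p = 0.173). Rps19, the gene most often mutated in human Diamond-Blackfan anaemia, differed by 0.43 ± 0.16 (adjusted p = 0.145), and Rplp0, the base of the stalk, by 0.30 ± 0.16 (adjusted p = 0.38). Rpl5 and Rpl11 form the 5S RNA particle that binds Mdm2 when ribosome assembly fails. Their probe sets were dim, and their differences were -0.15 ± 0.26 (adjusted p = 0.854) and -0.33 ± 0.14 (adjusted p = 0.229). Rpl22, known in mouse for its part in T cell development, differed by 0.02 ± 0.10 (adjusted p = 0.962).

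Rpl3, close to the catalytic centre of the large subunit, had the largest difference of all members, but it depended on the probe set. On the probe set used, Rpl3 read 8.34, 7.67 and 7.99 in Pax7+/+ and 9.39, 10.02 and 10.12 in Pax7-/- at day 21, where the fit gave 1.74 ± 0.23 log2 (3.35-fold, adjusted p = 0.000524). At day 7 it read 8.64, 8.53 and 8.47 in Pax7+/+ and 9.46, 10.18 and 9.39 in Pax7-/-, and at day 0 8.51, 8.91 and 8.91 against 9.42, 10.21 and 9.43. The genotypes did not overlap on any day. The second probe set of Rpl3, with a mean of 8.41 log2, differed by 0.43 ± 0.11 at day 21 (adjusted p = 0.0562 over all probe sets of the array), and the dimmest, with a mean of 4.29, by 0.07. Without Rpl3 and Rpl34, 16 of 55 members were higher in Pax7-/- at day 21, with an unchanged median of 0.30.

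Rpl34 read lower in Pax7-/- than in Pax7+/+ on every wide array, but not on every narrow one. On wide arrays it read 8.11, 7.88, 8.10 and 7.34 in Pax7+/+ and 6.11, 5.75, 5.34 and 5.12 in Pax7-/-, in order of day. On narrow arrays it lay between 6.68 and 8.10 in both genotypes. The day 21 difference was -0.80 ± 0.49 log2 (adjusted p = 0.449), with 0.65 on narrow and -2.11 on wide arrays. Rpl37 (-0.21 on narrow and 1.10 on wide arrays) and Rps20 (0.06 and 1.29) were the other members outside Rpl3 and Rpl38 with the widest gaps between sets, and neither passed. The source of these gaps was not tested.

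**Figure D4:**
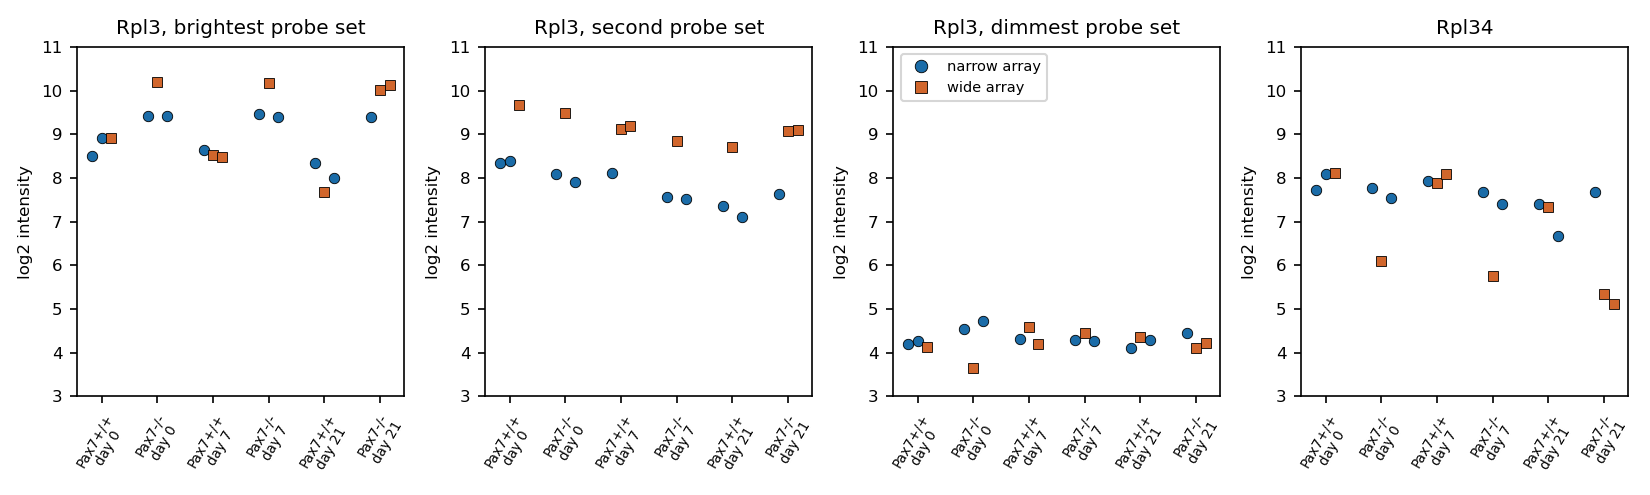
Log2 intensity by array for the 3 probe sets of Rpl3 and the probe set of Rpl34, with circles for narrow and squares for wide arrays. The brightest Rpl3 probe set is higher in Pax7-/- at every day, and the other probe sets are not higher at every day. The second one was higher at day 21 by a smaller difference that did not pass. The wide Pax7-/- arrays of Rpl34 (5.12 to 6.11) lie below all others.

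Of the other members with several probe sets, those not used in the comparisons gave a weaker picture. Over all 97 probe sets of the 57 members, fitted and adjusted over all probe sets of the array, 12 were higher in Pax7-/- at day 21 (2.11% of all probe sets were), of which 1 was among the 40 not used. Those 40 had a median difference of 0.24 log2. For 16 of the 24 members with several probe sets, all their probe sets had the same sign at day 21. Both probe sets of Rpl23a carried identical values on every array and so are no second reading. They are nonetheless counted separately among the 97, and Rpl23a is counted among the 16 members with the same sign. Probe sets with identical values pass or fail together, so the 1 call among the 40 at day 21 may be this copy. If it is, none of the other probe sets not used was higher at day 21 by this test. At day 7, 1 of the 40 was lower in Pax7-/- and none higher, where 0.29% of all probe sets were lower and 0.223% higher. It was the dimmer probe set of Rpl29, which read 6.87, 8.88 and 9.05 in Pax7+/+ and 5.14, 5.98 and 5.75 in Pax7-/-, a difference of -2.19 ± 0.39 log2 (limma adjusted p = 0.0208 over all probe sets). The brightest probe set of Rpl29 differed by 0.01 on that day.

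Before day 21 few members passed between the genotypes. At day 0 no member passed, with a median difference of -0.07 log2, while 0.388% of all genes were higher and 0.893% lower. At an unadjusted p under 0.05 there were 8, and 1 member passed without Pax7+/+ replicate 1 or replicate 2 of day 21. The shares of all genes for these 2 counts are not given here, so they say nothing particular to the members. At day 7 only Rpl3 passed (1 of 57 higher, where 0.32% of all genes were higher and 0.307% lower), by 1.23 ± 0.23 log2 (adjusted p = 0.0273). That call was lost, with 0 members passing, without Pax7+/+ replicate 2 or 3 or without any one Pax7-/- array of day 7, and there were 2 without Pax7+/+ replicate 2 of day 21. The median difference at day 7 was -0.06 log2. At day 0 the genotypes did not overlap in either array set for 9 members higher in Pax7-/- and 13 lower. The shares of all genes were 12.1% and 12.7%. At day 7 the counts were 6 higher and 13 lower, against 15.3% and 16.8%.

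The steps within each genotype show where the levels moved. From day 7 to day 21 ribosomal protein genes fell in Pax7+/+: 17 of 57 members were lower and 0 higher, with a median of -0.41 log2 against 0.01 for all genes. By the same test 4.48% of all genes were lower and 1.37% higher. Of the 17, 12 are of the large and 5 of the small subunit. Above the 90th percentile of signal 17 of 34 members were lower, as were 22.9% of all genes there. The groups did not overlap in either set for 43 members that were lower and for 0 that were higher, against 18.8% and 19.4% of all genes.

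This step uses the same 3 Pax7+/+ arrays of day 21 as the genotype difference at that day, so they are not independent, and their values are given side by side. The step was -1.28 ± 0.25 log2 for Rpl38 (adjusted p = 0.00636), where the genotype difference at day 21 was 1.29. The step was -1.19 ± 0.25 for Rpsa (adjusted p = 0.0101) and -0.90 ± 0.13 for Rpl10a (adjusted p = 0.000619), where the genotype differences were 0.99 and 0.61. Rpl9 fell by 1.15 ± 0.29 log2 (adjusted p = 0.0284), Rpl19 by 0.83 ± 0.18 (adjusted p = 0.00973) and Rpl14 by 0.77 ± 0.17 (adjusted p = 0.011). For Rpl9 the genotype difference at day 21 was 0.81 ± 0.29 and did not pass (adjusted p = 0.147). The other 11 members that fell were Rps26, Rpl23a, Rpl7a, Rpl21, Rpl32, Rps3, Rpl29, Rps12, Rpl28, Rpl4 and Rps6, by between 0.37 log2 (Rps6) and 0.76 (Rps26). With no block for the array set 0 members passed. Without Pax7+/+ replicate 1, 2 or 3 of day 7 the count was 7, 8 or 9, and without replicate 1 or 3 of day 21 it was 9 or 11. Among the probe sets not used, 6 of 40 were lower in this step, where 2.57% of all probe sets were.

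In Pax7-/- no member passed between day 7 and day 21, with a median of -0.05 log2, while 0.455% of all genes were higher and 0.379% lower. In that step 1 member had an unadjusted p under 0.05, for which the share of all genes is not given here. From day 0 to day 7 few members passed in either genotype. In Pax7+/+ the days did not overlap in either array set for 21 members that were lower at day 7 and 3 that were higher, against 19.8% and 19% of all genes. In Pax7-/- the counts were 13 lower and 3 higher, against 15.4% and 13.9%. In Pax7+/+ Rps23, at the decoding centre, rose by 0.72 ± 0.17 log2 (adjusted p = 0.0159) and Rpl7 fell by 0.72 ± 0.17 (adjusted p = 0.0212), with a median of -0.09 over all members. That is 1 of 57 in each direction, where 2.54% of all genes were higher and 3.14% lower. In Pax7-/- Rpl26, known to bind p53 mRNA, fell by 0.60 ± 0.15 log2 (adjusted p = 0.0394) as the only member to pass, where 1.82% of all genes were lower and 2.05% higher. For Rpl26 the step was -0.805 on narrow and -0.194 on wide arrays. Rps23 (mean 5.93 log2) and Rpl26 (mean 5.68) are dim, below the 75th percentile of signal. The median over all members in Pax7-/- was -0.13.

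These day 7 calls also moved with single arrays. The Pax7+/+ count of 2 became 1 without Pax7+/+ replicate 1 or 2 of day 0 or any one Pax7+/+ array of day 7. It became 4 without Pax7+/+ replicate 2 of day 21 or Pax7-/- replicate 2 of day 7. The Pax7-/- call was lost, with 0 members passing, without any one Pax7+/+ array of day 7, any one Pax7-/- array of day 0, Pax7-/- replicate 1 or 3 of day 7, Pax7+/+ replicate 3 or Pax7-/- replicate 2 of day 21. There were 2 members without Pax7+/+ replicate 1 of day 21.

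The members' level on each array gave the same order without a fit of the groups. These levels are also adjusted for the array set. Each gene was centred on its mean within the array set, and the median over the 57 members was -0.32, -0.35 and -0.33 log2 on the 3 Pax7+/+ arrays of day 21. It was 0.00, -0.07 and -0.04 on the Pax7-/- arrays of that day and between -0.06 and 0.20 on the 12 earlier arrays. The 3 Pax7+/+ arrays of day 21 were thus the lowest of the 18. The whole of the genes past the 90th percentile of signal lay at -0.26, -0.10 and -0.22 on these 3 arrays, and the 34 members above it at -0.60, -0.34 and -0.44.

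**Figure D5:**
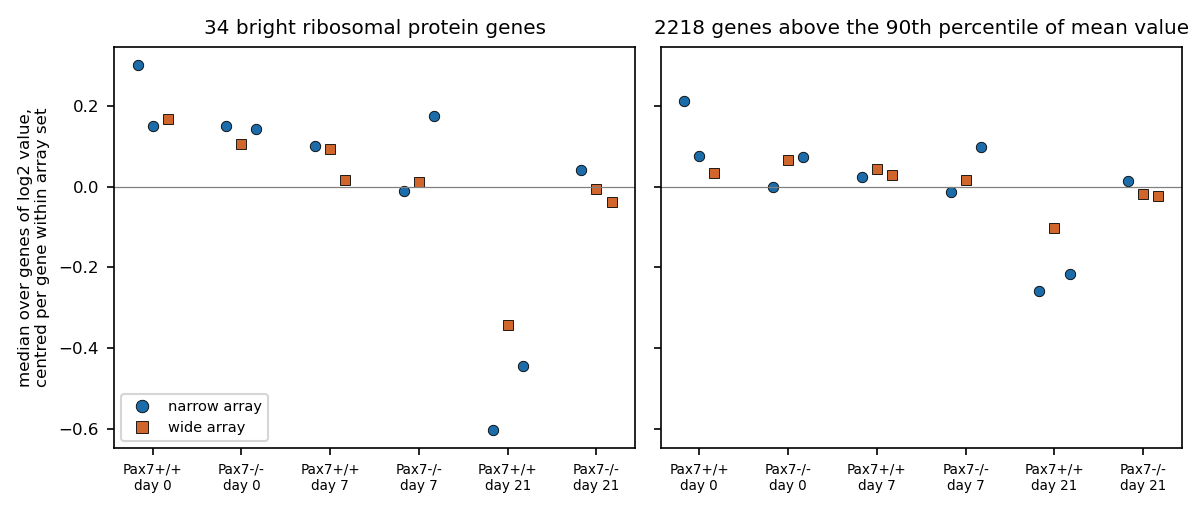
Median log2 value on each array, centred per gene within the array set, over the 34 members past the 90th percentile of signal (left) and over all 2218 genes past it (right), with circles for narrow and squares for wide arrays. The Pax7+/+ arrays of day 21 are lowest in both panels, at -0.60 to -0.34 on the left and -0.26 to -0.10 on the right.

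Whether the genotype difference itself changed between days was tested as an interaction. Between day 7 and day 21 the difference rose in 1 member, Rpl10a, by 0.86 ± 0.19 log2 (adjusted p = 0.045), where 0.721% of all genes passed upward and 0.189% downward. Above the 90th percentile of signal, where Rpl10a lies, 4.37% of all genes passed upward for this change and 1.31% downward. Between day 0 and day 21 the genotype difference rose in 4 members, where 1.5% of all genes passed upward and 0.356% downward. These were Rpl7 (1.21 ± 0.24 log2, adjusted p = 0.0162), Rpl14 (1.16 ± 0.23, adjusted p = 0.0162), Rps4x (0.77 ± 0.18, adjusted p = 0.0435) and Rpl10a (0.75 ± 0.18, adjusted p = 0.0457). All 4 lie above the 90th percentile of signal, where 8.75% of all genes passed upward and 2.16% downward. The median over the members was 0.41 for the change from day 7 to day 21 and 0.37 for that from day 0 to day 21. Between day 0 and day 7 no member passed, where 0.329% of all genes passed upward and 0.153% downward. An unadjusted p under 0.05 was found for 4 members, and the share of all genes at that cut is not given here. Without Pax7-/- replicate 1 of day 21, 1 member passed there.

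These counts depended on single arrays. With no block for the array set none passed. The single call for day 21 against day 7 was lost, with 0 members passing, without any one array of day 0 in either genotype, of Pax7+/+ at day 7, of Pax7+/+ replicate 1 or 3 or of any Pax7-/- array at day 21, and without Pax7-/- replicate 1 or 2 of day 7. It became 7 without Pax7+/+ replicate 2 of day 21. For day 21 against day 0 the count was 13 without that array and 0 without Pax7+/+ replicate 1 of day 0. It was 1 without Pax7+/+ replicate 2 of day 0. It was 2 without Pax7+/+ replicate 1 or 2 of day 7, Pax7+/+ replicate 1 or 3 of day 21, Pax7-/- replicate 1 or 2 of day 0, or Pax7-/- replicate 1 or 2 of day 21.

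Ribosomal protein genes outside the symbol pattern and the paralogs of members gave mixed values. Of 6 listed genes of the first kind 2 were measured: Rps3a1, a small subunit protein, was higher in Pax7-/- at day 21 by 1.09 ± 0.19 log2 (adjusted p = 0.00264), and Fau, the precursor of a small subunit protein, differed by 0.33 ± 0.12 without passing (adjusted p = 0.136). Fau fell between day 7 and day 21 in Pax7+/+ by 0.62 ± 0.12 (adjusted p = 0.00508). Of the 7 paralogs, Rps27l, a p53-regulated relative of Rps27, was higher at day 21 by 0.71 ± 0.11 (adjusted p = 0.00101), and Rpl7l1 by 0.62 ± 0.10 (adjusted p = 0.00242). Rps27 itself differed by 0.14 ± 0.21. Rpl3l, the striated muscle form of Rpl3, differed by -0.16, Rpl22l1 by 0.02 and Rpl39l by -0.07, and none of these passed. In the Pax7+/+ step to day 21, Rps4l (-1.03), Rps27l (-0.87) and Rpl7l1 (-0.79) fell, where 4.48% of all genes did. Of 15 ribosomal pseudogenes with a probe set, 1 was higher at day 21, Rps19-ps3 (0.81 ± 0.22, adjusted p = 0.0446). By the same test 3.82% of all genes were higher at day 21. Members and pseudogenes share sequence, so a probe set may read several of them.

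Some other genes of protein synthesis were also higher in Pax7-/- at day 21. Of 17 elongation factor and other TOP mRNA genes 4 were higher and none lower in Pax7-/- (median 0.32 log2), with Nap1l1, a histone chaperone, at 0.88 ± 0.11 and the initiation subunits Eif3f and Eif3e at 0.78 ± 0.20 and 0.61 ± 0.15. Of 25 initiation factors 7 were higher and none lower (median 0.36), led by Eif3l (1.21 ± 0.23) and Eif3b (0.79 ± 0.17). Of 71 mitochondrial ribosomal protein genes, which serve another ribosome, 8 were higher and none lower (median 0.20), among them Mrpl38 (0.85 ± 0.14) and Mrpl10 (0.70 ± 0.11). Of 12 chaperones and importers of ribosomal proteins 4 were higher, with the importins Ipo5 (1.31 ± 0.18) and Ipo7 (1.20 ± 0.25) and nucleolin, Ncl (0.99 ± 0.19). Nap1l1 is on this list as well as on that of TOP mRNA genes, so the counts of these lists are not separate. Of 19 genes that control ribosomal protein synthesis 2 were higher, Larp1 (0.70 ± 0.15) and the mTOR partner Rptor (0.51 ± 0.14). The share of all genes higher was 3.82% here too, and it was 19.8% of those above the 90th percentile of signal. These lists were not split by signal, so their counts are not shown to exceed the share of genes of like signal.

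In the Pax7+/+ step from day 7 to day 21 members of the same lists fell and none rose. The counts lower were 5 of 17 TOP mRNA genes, 8 of 25 initiation factors, 10 of 71 mitochondrial ribosomal protein genes, 4 of 12 chaperones and 3 of 19 control genes. By the same test 4.48% of all genes were lower, and 22.9% of those above the 90th percentile of signal. Here too the lists were not split by signal. Eef1e1 (-1.20 ± 0.18), Eif3l (-1.16 ± 0.23), Mrpl15 (-1.06 ± 0.13), Ipo7 (-1.24 ± 0.25) and Rheb, the activator of mTOR (-0.55 ± 0.11), were examples.

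Markers of cell division and of other cell types did not all move in the same direction at day 21. The shares of all genes to set beside their counts were 3.82% higher and 1.07% lower at day 21, and 4.48% lower in the Pax7+/+ step. At day 21, 9 of 11 proliferation genes were higher in Pax7-/- and none lower (median 0.92 log2), with Mcm5 at 1.36 ± 0.18 and Top2a at 1.13 ± 0.14. Their median centred level was -0.93 to -0.49 on the Pax7+/+ arrays and 0.03 to 0.25 on the Pax7-/- arrays. In Pax7+/+ 8 of the 11 fell between day 7 and day 21. Of 10 neural progenitor and neuron genes 6 were higher at day 21 (median 0.76), with array levels of -0.01 to 0.13 in Pax7+/+ and 0.38 to 0.55 in Pax7-/-. Of 18 naive pluripotency genes 5 were higher and 1 was lower, with array levels of -1.01 to -0.52 and -0.64 to -0.51. Fibroblast and matrix genes were lower for 3 of 12 (median -0.86), with array levels of 0.24 to 1.46 in Pax7+/+ and -0.20 to 0.47 in Pax7-/-. Endoderm genes were also lower for 3 of 12 (median -0.86), with levels of 0.71 to 1.09 and -0.06 to 0.27. None of 11 muscle genes passed, with levels of 0.00 to 0.19 and 0.00 to 0.72. The part of these markers in the ribosomal protein difference was not tested.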

How the data were processed

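The deposited values were log2 intensities per probe set of 18 Affymetrix arrays; RMA and Partek are named in the submitters' processing notes, with no version. Whether both array sets came from 1 joint summary is not given in the sources used here. The array had 41345 probe sets: 23521 had a single symbol, 1814 had more and 16010 had no symbol. For each of 22180 genes the probe set with the highest mean was kept, with no filter on low values.

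Tests used limma 3.58.1 under R 4.3.3 (lmFit, contrasts, eBayes without trend), with 6 group means and the array set (SD over probe sets above 1.6 for wide) as a fixed block, 11 residual degrees of freedom, and Benjamini-Hochberg adjustment over all genes. Because the offset between sets is estimated from all groups, a fitted difference can lie outside its within-set values. Narrow arrays alone left 4 and wide arrays alone 2 residual degrees of freedom. The number of arrays limits the precision, and the smallest exact permutation p for 3 against 3 is 0.1. The code was tested on simulated data.

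Alternatives were no block, a random block, quantile normalization, median centring with and without scaling, a 25th percentile filter, the mean over probe sets, trend with robust fitting, a replicate block, an adjusted p under 0.01, and each array left out. Backgrounds above the 90th percentile, all probe sets, and members without Rpl3 and Rpl34 were added after seeing the data. The replicate numbers were not taken to pair samples: same-numbered arrays of a day correlated at -0.21 to 0.23 in their deviations.

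The members and lists were chosen with earlier results of these data known. Named were up to 8 passing members per direction for genotype differences, up to 6 for steps and interactions, members with known roles, the 5 with the widest gap between array sets, paralog pairs, up to 4 passing genes per other list, and Pax7. Other passing members are listed because they passed. Figures were drawn with matplotlib 3.10.9.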

Additional observations from a re-analysis of the deposited data

Results flagged for a closer look

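The genotype difference itself changed between days in 5 tests on 4 members, by the interaction term of the limma fit. For the change from day 7 to day 21, 0.721% of all genes passed upward, and 4.37% of those above the 90th percentile of signal. From day 0 to day 21 these shares were 1.5% and 8.75%. All 4 members lie above that percentile. For Rpl10a the genotype difference rose by 0.86 log2 between day 7 and day 21, from -0.24 at day 7 to 0.61 at day 21, and by 0.75 between day 0 and day 21. For Rpl7 it rose by 1.21 between day 0 and day 21, from -0.44 to 0.77, and for Rpl14 by 1.16, from -0.44 to 0.73. For Rps4x it rose by 0.77, from -0.26 to 0.51. On narrow arrays alone the change from day 0 to day 21 was 1.68 for Rpl7 and 1.74 for Rpl14, and on wide arrays alone it was 0.63 and 0.38. All 5 lost their call with 1 or another array left out, with highest adjusted p-values between 0.0529 and 0.16.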

How the results depend on the processing

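Counts are members of 57 that passed, and the shares of all genes under these alternatives are not given here. No block for the array set gave 0 in all 10 comparisons. A random block gave 11 for the genotype difference at day 21, 1 for day 7 minus day 0 in Pax7+/+, 0 for that step in Pax7-/-, and 0 and 1 for the changes of the genotype difference from day 7 and from day 0 to day 21. Centring with scaling gave 1 at day 0, 11 at day 21, and 0 and 2 for these changes; median centring gave 4 for day 7 minus day 0 in Pax7+/+ and 0 for the change from day 7. Quantile normalization gave 1 for the change from day 0 to day 7. The mean over probe sets gave 2 for day 7 minus day 0 in Pax7-/- and 2 for the change from day 7 to day 21. An adjusted p under 0.01 left 3 at day 21, 5 for day 21 minus day 7 in Pax7+/+ and 0 elsewhere. Narrow arrays alone gave 0 at day 7, 8 at day 21, 1 and 8 for the Pax7+/+ steps to day 7 and day 21, and 2 for the change from day 7 to day 21. Wide arrays alone gave 3 at day 0, 2 at day 7, 5 at day 21, 4 for day 7 minus day 0 in Pax7-/- and 1 for the change from day 0 to day 7. The replicate block beside the array set, although the numbers do not pair the samples, gave 0 at day 7, 0 for day 7 minus day 0 in Pax7-/- and 0 for the change from day 7 to day 21, and 14 at day 21 and 16 for day 21 minus day 7 in Pax7+/+. The cause of these moves was not tested.

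With each array left out in turn the counts ranged from 0 to 1 at day 0, 0 to 2 at day 7 and 5 to 18 at day 21. For day 7 minus day 0 they ranged from 1 to 4 in Pax7+/+ and 0 to 2 in Pax7-/-, and for day 21 minus day 7 from 7 to 22 in Pax7+/+ and 0 to 0 in Pax7-/-. The changes of the genotype difference gave 0 to 1 (day 7 minus day 0), 0 to 7 (day 21 minus day 7) and 0 to 13 (day 21 minus day 0).

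Of the named members' values under all alternatives, 796 kept direction and side of the threshold, 208 kept direction and lost the call, 4 gained it and 11 changed sign. Rpl7 for day 7 minus day 0 in Pax7+/+ turned to 0.10 with no block. The others are day 21 genotype differences, none of which had passed. On wide arrays Rpl5 turned to 0.301 and Rpl22 to -0.024, and on narrow arrays Rpl34 turned to 0.65 and Rpl37 to -0.21. With 1 array left out Rpl5 ranged from -0.493 to 0.146, Rpl22 from -0.083 to 0.075, Rpl37 from -0.295 to 0.533 and Rps20 from -0.265 to 0.633.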

Other observations

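A further 57 probe sets carry several symbols, at least 1 of them a ribosomal protein gene, and stand for no single gene. Of these, 7 were higher in Pax7-/- at day 21 and 0 lower (median 0.25 log2), where 2.11% of all probe sets were higher. Between day 7 and day 21 in Pax7+/+ 11 were lower and 1 higher (median -0.36), where 2.57% of all probe sets were lower. Over the 18 arrays, with group and array set removed, the 561 pairs among the 34 members above the 90th percentile of signal had a median correlation of 0.27, and 71.5% of pairs were above 0. Over all 1596 pairs of the 57 members the median was 0.04 and 53.6% were above 0. The pairs share arrays and are given as a description.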
